A study of Mus musculus with 12 samples.

Results

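ISG15 is a small ubiquitin-like protein that is joined to other proteins by its own chain of enzymes, and 5 genes of that chain were followed here across M2-like polarized bone marrow-derived macrophages (BMDM). The genes were taken by symbol from the count matrix and are Isg15 itself (the modifier), Uba7 (the E1 activating enzyme), Ube2l6 (the E2 conjugating enzyme), Herc6 (the E3 ligase) and Usp18 (the protease that takes ISG15 off again). All 5 were found among the 56748 genes listed, and all 5 passed the filter on low counts that left 15033 genes for testing.

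Total RNA of 12 cultures was sequenced, 3 libraries for each of 4 conditions, to ask how interferon-β (IFNβ) released by melanoma cells acts on macrophages and whether the other contents of tumor cell supernatant add to it. Marrow came from female wild-type C57BL/6J mice. The cells of every condition were differentiated with 20 ng/mL M-CSF, polarized with 10 ng/mL IL4 for 48 h, and then kept for 72 h in one of 4 media. The untreated control received plain medium. The eGFP supernatant came from YUMM5.2 eGFP cells, a mouse melanoma line carrying a doxycycline-inducible lentiviral construct without Ifnb1. The Ifnb1eGFP supernatant came from YUMM5.2 cells whose construct also encodes IFNβ, and was diluted to 1500 pg/mL IFNβ. The fourth medium held recombinant IFNβ (rIFNβ) at the equivalent concentration. Both donor lines had been given 1 µg/mL doxycycline for 72 h, and the eGFP supernatant was diluted by the same ratio as the Ifnb1eGFP supernatant, so that residual doxycycline and tumor cell products can be in both supernatants and in neither of the other media. IFNβ was supplied in the medium and the macrophages carried no transgene. The labels number the libraries 1 to 3 within each condition and do not say whether a number marks a mouse, so p-values measure the spread between these libraries, which may be technical.

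In conjugation, UBA7 activates ISG15 and hands it to UBE2L6, and a HERC-family ligase, which in mouse is HERC6, passes it on to target proteins, many of them newly made. USP18 removes ISG15 from its targets and, apart from that protease activity, binds the IFNAR2 chain of the interferon receptor and dampens signalling. All 5 genes are known interferon-stimulated genes, switched on by receptor signalling through interferon-stimulated response elements in promoters, and free ISG15 is also secreted and acts on lymphocytes through the integrin LFA-1.

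On GRCm39 with GENCODE M39, Isg15 (ENSMUSG00000035692) lies on chromosome 4, positions 156283883 to 156285303, on the minus strand. Uba7 (ENSMUSG00000032596) lies on chromosome 9, positions 107852704 to 107861262. Ube2l6 (ENSMUSG00000027078) lies on chromosome 2, positions 84628630 to 84640783. Herc6 (ENSMUSG00000029798) and Usp18 (ENSMUSG00000030107) both lie on chromosome 6, at positions 57557932 to 57642597 and 121222848 to 121247877, and all of them but Isg15 are on the plus strand. The exons of Isg15 cover 782 bp and those of Herc6 10434 bp, with 6695 bp for Uba7, 2802 bp for Ube2l6 and 3250 bp for Usp18.

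Promoter windows of 250 bases before to 50 bases after the transcription start were matched for 4 of the 5 genes in RefSeq (GRCm38.p6). Usp18 was not matched. The 2 windows shown are those of the modifier, which had the largest fold changes of the 5, and of Uba7, which had the smallest fold change on Ifnb1eGFP supernatant. The first is chr4:156200769-156201068 on the minus strand and the second chr9:107975317-107975616 on the plus strand, both of GRCm38.p6. Capitals mark matches to the core of the interferon-stimulated response element, which is GAAA, any 2 bases and GAAA again.
Isg15: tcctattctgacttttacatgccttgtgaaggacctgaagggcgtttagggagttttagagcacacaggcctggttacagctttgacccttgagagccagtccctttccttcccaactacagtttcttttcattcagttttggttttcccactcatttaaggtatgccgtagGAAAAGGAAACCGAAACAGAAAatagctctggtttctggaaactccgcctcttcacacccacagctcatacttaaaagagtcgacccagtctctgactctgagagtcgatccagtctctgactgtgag
Uba7: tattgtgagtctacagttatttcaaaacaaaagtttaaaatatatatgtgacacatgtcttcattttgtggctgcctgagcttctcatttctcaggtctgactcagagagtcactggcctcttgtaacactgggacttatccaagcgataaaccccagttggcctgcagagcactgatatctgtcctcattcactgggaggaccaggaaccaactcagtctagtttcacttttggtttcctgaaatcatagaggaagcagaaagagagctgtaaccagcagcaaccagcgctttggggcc

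In the Isg15 window the letters were found 3 times on the strand of the gene, as GAAAAGGAAA, GAAACCGAAA and GAAACAGAAA, which overlap one another and together span bases -78 to -57 from the start. The windows of Uba7, Ube2l6 and Herc6 held no match on either strand. For the gamma-activated site, TTC and GAA with any 3 bases between them, none of the 4 windows held a match. The first motif was found in 3.44% and the second in 8.30% of all 32851 mouse windows of this length. Among the 10371 tested genes with a window, 4.01% held the response element core. Of the 262 such genes that were at least 2 higher on the log2 scale on Ifnb1eGFP than on eGFP supernatant (adjusted p not above 0.01, edgeR), 29.0% held it, against 2.0% of the 250 that were lower by as much. A match is a run of letters and no measure of binding, and the lack of an exact match does not show that a site is absent. Whether matches go with the size of the rise among the genes of the chain was not tested.

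The libraries held 31526034 to 45348457 counts. The macrophage markers Adgre1, Csf1r, Cd68, Itgam, Lyz2, Mertk and Fcgr1 were all tested and summed to 9650 to 18500 CPM (counts per 1000000 counts), with 14100 or more in every library without IFNβ and 10600 or less in every library with it. Of the IL4-driven genes, Mrc1 lay at 609 to 839 CPM, Chil3 at 63.2 to 129 CPM and Retnla at 45.4 to 71.3 CPM. Arg1 stayed under 1 CPM in every library. Defining T cell, B cell, NK cell and erythroid markers were at or near 0 in all conditions, except Cd4 at 3.72 to 9.96 CPM. Neutrophil and dendritic cell markers summed to at most 5.72 and 1.61 CPM and were lower with IFNβ. Fibroblast markers summed to 22.6 to 65.1 CPM, and melanoma cell markers to at most 0.81 CPM. The sum of macrophage markers follows Lyz2, at 8810 to 12800 CPM without IFNβ and 3440 to 4320 CPM with it. Itgam was also lower with IFNβ (317 to 426 CPM against 1420 to 1630), while Fcgr1 went the other way, from 48.8 to 112 CPM up to 1110 to 1290 CPM. Adgre1 moved less, from 1480 to 1600 CPM up to 1650 to 1840 CPM, and Csf1r reached at most 1130 CPM without IFNβ and 1190 CPM with it. The macrophage, neutrophil, dendritic cell and Cd4 values move with IFNβ exposure, and their part in the results below was not tested. Fewer cells of a type and less RNA per cell cannot be told apart in bulk samples. The second libraries of both supernatant conditions stood apart from their replicates: 79 genes in eGFP supernatant replicate 2 and 107 in Ifnb1eGFP supernatant replicate 2 were above 1 CPM and over 2 times both other libraries of their condition, against 11 to 46 in the other 10 libraries. For the 5 genes, values are given with and without these libraries where leaving them out moves a result, and for related genes where the fold change moves by over 1.5 times.

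All 5 genes of the ISG15 chain were higher on Ifnb1eGFP supernatant than on eGFP supernatant, and all 5 were higher on rIFNβ than in untreated cells (edgeR quasi-likelihood test, adjusted p at most 0.05 over all genes tested). The modifier rose 25.3-fold in the first comparison and 69.8-fold in the second, and the protease 19.7-fold and 59.1-fold. Against the eGFP supernatant libraries without replicate 2 the first values were 65.8-fold for the modifier and 45.7-fold for the protease. The ligase rose 10.9-fold and 16.0-fold, the conjugating enzyme 4.00-fold and 3.87-fold and the activating enzyme 3.18-fold and 4.16-fold. Over all genes tested, 30.1% and 30.7% were called higher, so that a call alone is common here. At stricter limits, a log2 fold change no lower than 2 and an adjusted p no higher than 0.01, 4 of the 5 passed in each comparison, where 2.77% and 2.99% of all genes did. The one that missed was Uba7 in the first comparison and Ube2l6 in the second. All 3 libraries with IFNβ lay above all 3 without it for each of the 5 genes in both comparisons, a separation seen in 32.4% and 36.4% of all genes. Without Ifnb1eGFP supernatant replicate 2 the log2 fold changes of the first comparison were 4.67 for Isg15, 1.69 for Uba7, 2.01 for Ube2l6, 3.51 for Herc6 and 4.34 for Usp18, close to those given gene by gene below.

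**Figure D1:**
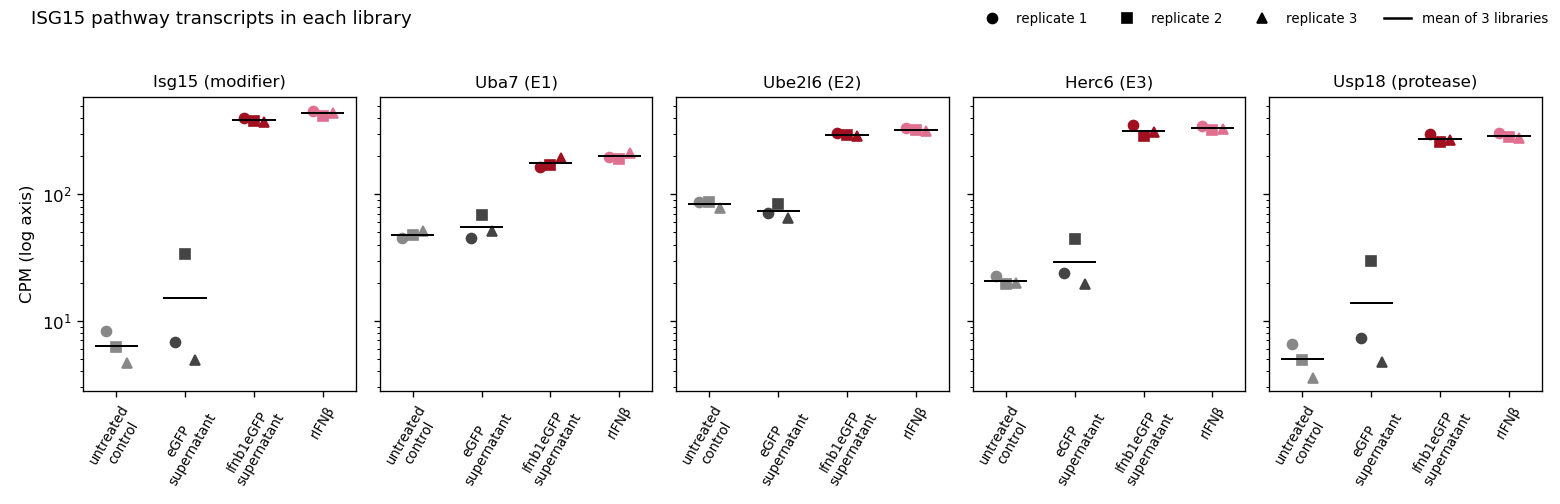
CPM on a log axis for the 5 genes in each of the 12 libraries, 1 panel a gene, with the 3 replicates of a condition as different symbols and a bar at their mean. For every gene the 6 libraries with IFNβ lie above the 6 without, and eGFP supernatant replicate 2 lies above the other libraries without IFNβ for each gene but Ube2l6.

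Isg15, the modifier, was measured at 8.27, 6.21 and 4.61 CPM in the untreated libraries and at 6.85, 33.9 and 4.87 CPM on eGFP supernatant. With IFNβ it reached 402, 378 and 376 CPM on Ifnb1eGFP supernatant and 459, 418 and 442 CPM on rIFNβ. The groups did not overlap, and the lowest library with IFNβ was far above the highest without, eGFP supernatant replicate 2. The means were 6.36 ± 1.83, 15.2 ± 16.2, 385 ± 14.2 and 440 ± 20.9 CPM in that order of conditions (SD, n = 3 each). The log2 fold change was 4.66 (SE 0.587, adjusted p = 3.86e-05 by edgeR) on Ifnb1eGFP against eGFP supernatant. On rIFNβ against untreated control it was 6.13 (SE 0.641, adjusted p = 8.17e-06 by edgeR). Without eGFP supernatant replicate 2 the first value was 6.04 (SE 0.222), and the second stayed at 6.13 with its SE at 0.186, since all libraries share 1 estimate of the spread. Isg15 stood 90th and 68th by fold change among the 15033 genes. Gm9706, a processed pseudogene 95.2% identical to Isg15 over 482 bp, had 0 to 7 counts in any library.

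Uba7 encodes the enzyme that activates ISG15 and starts the chain. Its untreated libraries held 45.4, 47.4 and 51.5 CPM and those on eGFP supernatant 45.5, 68.2 and 51.8 CPM. On Ifnb1eGFP supernatant there were 164, 170 and 193 CPM and on rIFNβ 196, 192 and 213 CPM. The conditions with IFNβ lay above the others without overlap, and replicate 2 was again the highest of the eGFP supernatant libraries. Its log2 fold changes were 1.67 (SE 0.126, adjusted p = 5.99e-07, edgeR) and 2.06 (SE 0.128, adjusted p = 1.07e-07, edgeR) in the 2 comparisons. Leaving out eGFP supernatant replicate 2 gave 1.85 for the first.

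Ube2l6, which carries activated ISG15 to the ligase, had the highest mean level per length of the chain in both conditions without IFNβ. It was measured at 87.7, 86.9 and 77.7 CPM in untreated cells and 71.6, 84.7 and 65.5 CPM on eGFP supernatant. It rose to 307, 293 and 288 CPM on Ifnb1eGFP supernatant and to 337, 322 and 317 CPM on rIFNβ. Replicates of Ube2l6 were tightly grouped with IFNβ and, unlike those of the other 4 genes, eGFP supernatant replicate 2 lay within the range of the untreated libraries. The log2 fold changes of 2.00 (SE 0.0858, adjusted p = 6.48e-09, edgeR) and 1.95 (SE 0.0856, adjusted p = 6.62e-09, edgeR) lie at the stricter limit of 2. Its place on either side of that limit is therefore a matter of the setting: edgeR's RLE factors, DESeq2 and a fit without the filter on low counts each left 3 of the 5 genes past it in the first comparison. Leaving out eGFP supernatant replicate 2 gave Ube2l6 a log2 fold change of 2.11 (SE 0.0703) there. Repeats in Ube2l6 transcripts match parts of other transcripts. Its expected counts were whole numbers in all 12 libraries, so no reads shared out in fractions show in them. Whether its count takes in reads of those transcripts was not tested.

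Herc6, the mouse ISG15 ligase, showed 22.8, 19.7 and 19.9 CPM untreated and 24.0, 44.6 and 19.5 CPM on eGFP supernatant. On Ifnb1eGFP supernatant its libraries held 357, 291 and 310 CPM, and on rIFNβ 347, 323 and 327 CPM. No library with IFNβ came near those without, and eGFP supernatant replicate 2 was the highest of the latter. The log2 fold changes were 3.44 (SE 0.247, adjusted p = 3.87e-07, edgeR) and 4.00 (SE 0.255, adjusted p = 1.3e-07, edgeR). Leaving out eGFP supernatant replicate 2 gave 3.87 (SE 0.124) for the first. Herc6 shares 1269 exonic bp with Gm45193, a lncRNA on the same strand with 48.91 to 1045.68 counts a library, so reads could be split between them. Gm45193 itself rose, with log2 fold changes of 3.28 and 3.07 (adjusted p = 4.05e-07 and 9.81e-07, edgeR), and adding its counts to Herc6, an alternative chosen after the data were seen, gave 3.43 and 3.95 for the sum.

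Usp18, which removes ISG15 and restrains the receptor, had 6.61, 4.86 and 3.55 CPM in untreated cells and 7.35, 29.8 and 4.74 CPM on eGFP supernatant. With IFNβ it stood at 298, 262 and 269 CPM on Ifnb1eGFP supernatant and at 308, 287 and 281 CPM on rIFNβ. The groups were separate for this gene too, and as with Isg15 a single library of the eGFP supernatant was raised over the rest. Its log2 fold changes were 4.30 (SE 0.532, adjusted p = 3.33e-05, edgeR) and 5.88 (SE 0.591, adjusted p = 5.76e-06, edgeR). Without eGFP supernatant replicate 2 the first became 5.51 (SE 0.239).

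Between the 2 sources of IFNβ none of the 5 genes was called, by edgeR or DESeq2, where edgeR called 0.16% of all genes. None had an unadjusted p under 0.05, against 8.57% of all genes. Each was lower on Ifnb1eGFP supernatant by a log2 fold change of 0.2 or less. The 95% interval of the log2 difference was -1.28 to 0.90 for Isg15, -0.46 to 0.08 for Uba7 and -0.32 to 0.04 for Ube2l6. It was -0.54 to 0.43 for Herc6 and -1.08 to 0.92 for Usp18. As ratios of Ifnb1eGFP supernatant to rIFNβ the intervals were 0.728 to 1.06 for Uba7 and 0.802 to 1.03 for Ube2l6, and wider for Isg15 (0.412 to 1.86) and Usp18 (0.474 to 1.89). The adjusted p ran from 0.636 to 0.966 (edgeR). These intervals carry a spread shared by all 12 libraries, to which eGFP supernatant replicate 2 adds although it is in neither condition. Without it the ratio intervals were 0.704 to 1.09 for Isg15 and 0.743 to 1.2 for Usp18. Those of Uba7 (0.779 to 0.988) and Ube2l6 (0.833 to 0.994) no longer included 1. The share of all genes with such an interval in that fit is not given here, so this is not read as a difference particular to the 2 genes. None of the 5 genes was called (adjusted p = 0.642 to 0.877, edgeR).

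Library by library, Isg15, Uba7, Ube2l6 and Usp18 were lower on Ifnb1eGFP supernatant in all 3 same-numbered pairs and Herc6 in 2 of 3. The share of all genes lower in all 3 pairs was not counted, and the 5 genes share the same libraries. For 2 of the 5, Isg15 and Ube2l6, every library on Ifnb1eGFP supernatant lay below every library on rIFNβ, as did 4.58% of all genes. The fit above takes no account of the numbers, although same-numbered libraries deviated together between these conditions. With the replicate number as a block the log2 fold changes were -0.20 for Isg15, -0.19 for Uba7, -0.14 for Ube2l6, -0.06 for Herc6 and -0.07 for Usp18 (adjusted p = 0.406 to 0.954, edgeR), and 48 genes were called against 24 without it. Fitted on the 6 compared libraries alone, Isg15 and Ube2l6 had unadjusted p of 0.0157 and 0.0381 in the edgeR fit, and an adjusted p of 0.746 each. The share of all genes with an unadjusted p under 0.05 in that fit is not given here.

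The eGFP supernatant against untreated control gave no call for the 5 genes in edgeR or DESeq2, with 0.299% of all genes called by edgeR. The largest log2 fold changes were 1.50 for Usp18 (95% interval 0.28 to 2.72, adjusted p = 0.47, edgeR) and 1.27 for Isg15 (-0.01 to 2.55, adjusted p = 0.624, edgeR). Without eGFP supernatant replicate 2 they were 0.29 and -0.10, and those of Herc6 and Uba7 went from 0.50 to 0.07 and from 0.20 to 0.02. Ube2l6 had -0.19 with that library and -0.29 without it. Unadjusted p fell under 0.05 for 2 of the 5, Usp18 and Ube2l6, and for 8.0% of all genes.

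Whether IFNβ gave another fold change in supernatant than in plain medium was tested as an interaction. None of the 5 genes was called by edgeR or DESeq2, where edgeR called 0.0% of all genes and DESeq2 called 16. In the edgeR fit 661 genes (4.4%) had an unadjusted p under 0.05, among them Uba7 (0.0485) and Usp18 (0.0494). The difference in log2 fold change was -1.46 for Isg15, -1.58 for Usp18, -0.56 for Herc6, -0.39 for Uba7 and 0.05 for Ube2l6 (adjusted p = 0.926 to 0.949, edgeR). Without eGFP supernatant replicate 2 the values were -0.09, -0.37, -0.12, -0.21 and 0.16 in the same order.

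**Figure D2:**
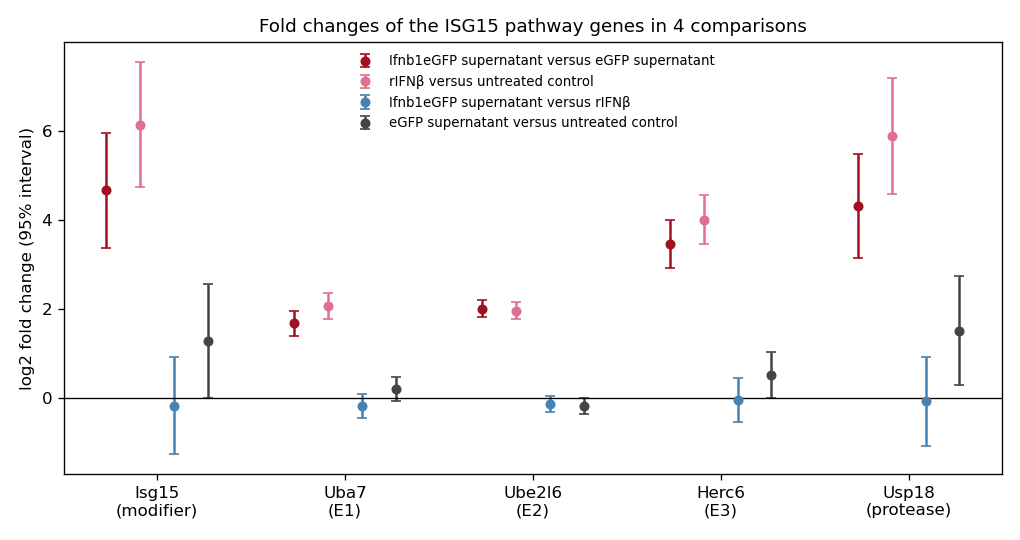
Log2 fold changes of the 5 genes (points) with their 95% intervals (bars) in 4 comparisons of the edgeR fit. Both comparisons of IFNβ with no IFNβ lie above 0 for every gene, from 1.67 for Uba7 to 6.13 for Isg15, and the intervals between the 2 sources of IFNβ all include 0 in this fit of all 12 libraries.

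The raised library was looked at gene by gene. In eGFP supernatant replicate 2, Isg15 was 5.78 times and Usp18 4.93 times the mean of replicates 1 and 3. Herc6 was 2.05 times, Uba7 1.40 times and Ube2l6 1.24 times that mean. Against the same 2 libraries, Ifnb1eGFP supernatant raised Isg15 65.8-fold, Usp18 45.7-fold, Herc6 14.7-fold, Ube2l6 4.32-fold and Uba7 3.61-fold. Both sets of ratios share replicates 1 and 3 as their base and are set side by side only. The raised library stayed far under the libraries with IFNβ, with an Isg15 level at 8.79% and a Usp18 level at 10.8% of the Ifnb1eGFP supernatant mean. Over 2 times the highest of the 5 other libraries without IFNβ were 74 of the tested genes (0.492%), Isg15 and Usp18 among them. No label sets this culture apart from its replicates.

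The ratio of each enzyme to the modifier within a library does not depend on scaling. Every library without IFNβ held more counts of Uba7, Ube2l6 and Herc6 than of Isg15, and every library with IFNβ fewer. Counts are not divided by exon length, which is 782 bp for Isg15 and 6695 bp for Uba7, so this crossing depends on length. Per kb of exon, mean Isg15 in untreated cells was 8.13 CPM, above Uba7 (7.18) and Herc6 (1.99). The change of a ratio between libraries does not depend on length. The log2 ratio of Uba7 to Isg15 was 1.01 to 3.47 over the 6 libraries without IFNβ and -1.29 to -0.97 over the 6 with it. For Ube2l6 it went from 1.32 to 4.06 down to -0.48 to -0.37, and for Herc6 from 0.40 to 2.10 down to -0.44 to -0.17. In each of the 3 the lowest value without IFNβ was that of eGFP supernatant replicate 2, and no ranges overlapped. The mean ratio fell by 3.80 on the log2 scale for Uba7, by 3.69 for Ube2l6 and by 1.91 for Herc6 (exact permutation test over libraries within supernatant and within plain medium, two-sided, p = 0.005 for each, the smallest it can give, adjusted p = 0.005 over 4 ratios). Isg15 stood 90th and 68th by fold change among the 15033 genes, so a ratio to it would fall for most genes. The share of all genes with such a fall was not counted. These p-values, and that of Usp18 below, restate the fold changes and show nothing particular to the enzymes.

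Usp18 kept closer to Isg15. Its log2 ratio was -0.37 to 0.10 without IFNβ and -0.66 to -0.43 with it, a mean fall by 0.34 (1.27-fold, exact permutation test, p = 0.005, adjusted p = 0.005). The ranges lay close together for this gene, with 0.10 the highest and -0.37 the lowest value without IFNβ and -0.43 the highest with it. By condition the mean log2 ratio was -0.35 ± 0.03 in untreated cells, -0.04 ± 0.14 on eGFP supernatant, -0.48 ± 0.05 on Ifnb1eGFP supernatant and -0.59 ± 0.06 on rIFNβ (SD, n = 3 each). In eGFP supernatant replicate 2 the ratio was -0.18, below its replicates at 0.10 and -0.04 and above all libraries with IFNβ. The 4 ratios share the same Isg15 counts. Without that library the log2 differences were -4.14, -4.06, -2.16 and -0.38 for Uba7, Ube2l6, Herc6 and Usp18.

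**Figure D3:**
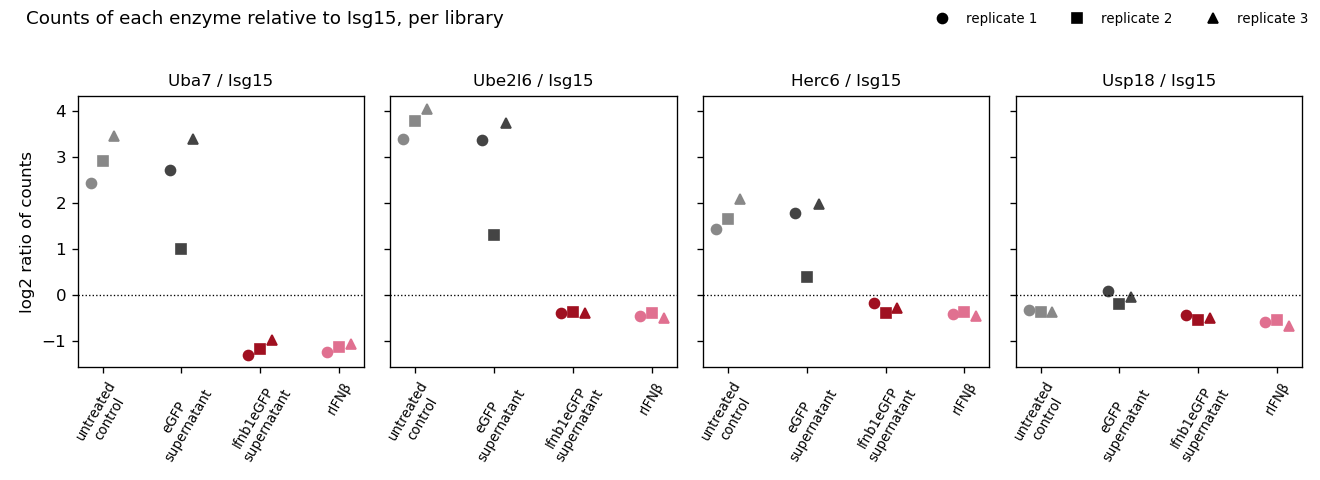
Log2 ratio of the counts of Uba7, Ube2l6, Herc6 and Usp18 to those of Isg15 in each library, 1 panel a gene; the dotted line marks equal counts. Uba7, Ube2l6 and Herc6 lie above the line in all 6 libraries without IFNβ and below it in all 6 with IFNβ, while Usp18 moves by 0.34 on average. Counts are not divided by gene length, so the side of the line on which a gene lies depends on length.

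The 5 genes were put in order of level as CPM per kb of exon, which for Isg15 gave 8.13 ± 2.34 in untreated cells, 19.4 ± 20.7 on eGFP supernatant, 493 ± 18.2 on Ifnb1eGFP supernatant and 563 ± 26.8 on rIFNβ (SD, n = 3 each). Among 14962 genes with a length it went from place 3572 in untreated cells to place 48 on Ifnb1eGFP supernatant and 41 on rIFNβ. In untreated cells the order of the levels was Ube2l6 (30.0 CPM per kb), Isg15 (8.13), Uba7 (7.18), Herc6 (1.99) and Usp18 (1.54). Isg15 and Uba7 overlapped in their replicates there, as did Herc6 and Usp18. On rIFNβ the order was Isg15 (563 CPM per kb), Ube2l6 (116), Usp18 (89.9), Herc6 (31.8) and Uba7 (29.9), where only the last pair overlapped. Ifnb1eGFP supernatant gave the same order, with 493, 106, 85.0, 30.6 and 26.2 CPM per kb. With the longest transcript as the length, Usp18 stood above Ube2l6 in both conditions with IFNβ, and Uba7 above Isg15 in untreated cells.

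The make-up of the chain shifted with its total. The 5 levels summed to 44.3 to 52.9 CPM per kb in untreated cells and to 722 to 865 with IFNβ. Ube2l6 made up 56.0% to 62.8% of that sum in the untreated libraries and in eGFP supernatant replicates 1 and 3, and Isg15 13.3% to 20.0%. In the libraries with IFNβ Isg15 made up 66.4% to 68.3% and Ube2l6 13.6% to 14.5%, and Usp18 10.4% to 11.9%, against at most 4.95% in the former 5 libraries. Herc6 kept a share of 3.79% to 5.04% in all 12 libraries. eGFP supernatant replicate 2 lay in between, with 44.6% Isg15, 31.1% Ube2l6 and a sum of 97.2 CPM per kb. These shares depend on the length used. The longest transcript is shorter than the summed exons for every gene but Isg15, so with it the share of Isg15 would be smaller. On Ifnb1eGFP supernatant the levels were then 493 CPM per kb for Isg15, 129 for Usp18 and 121 for Ube2l6. Shares are given as a description of transcript levels, and no protein or conjugate was measured.

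**Figure D4:**
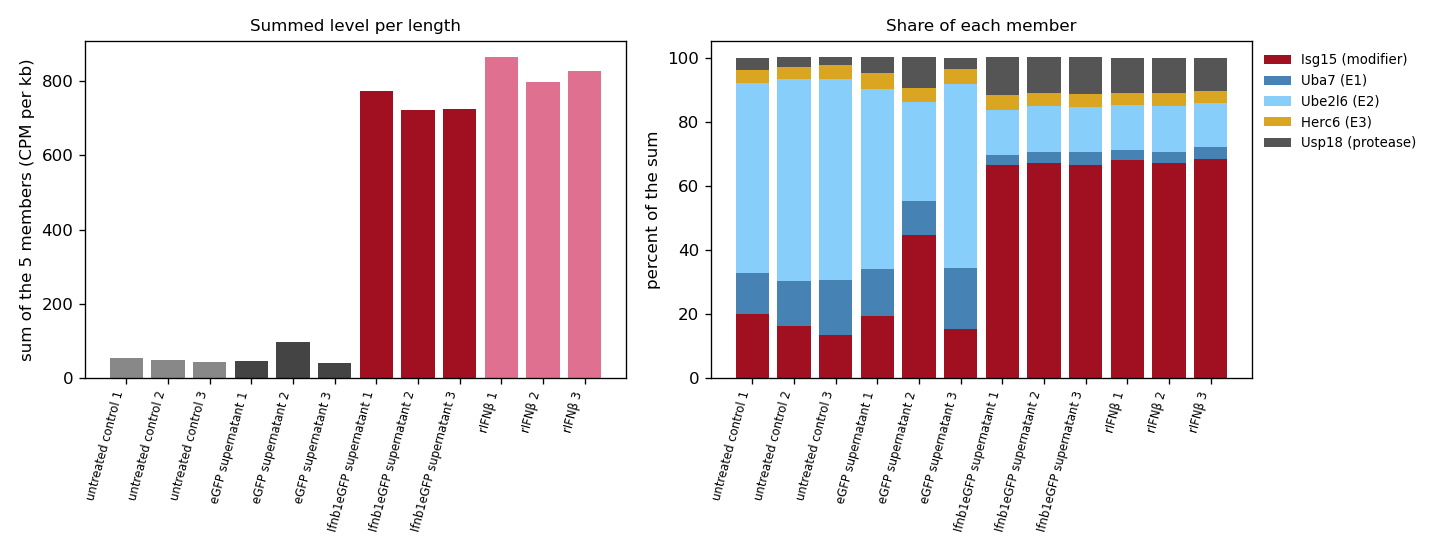
Left, the sum of the 5 levels in CPM per kb of exon for each of the 12 libraries; right, the percent of that sum made up by each gene. Libraries with IFNβ have sums of 722 or more, of which Isg15 makes up at least 66.4%. In both panels eGFP supernatant replicate 2 stands between them and the other libraries without IFNβ. The percentages would differ with the longest transcript as the length.

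Profiles over the 12 libraries were compared by the root mean square difference of centred log2 CPM, a description with no test in which all genes share the same libraries. The 3 tested genes nearest to Isg15 were Iigp1c (0.142), Ifi209 (0.217) and Usp18 (0.217), and the 3 nearest to Usp18 were Iigp1c (0.203), Ifi209 (0.211) and Isg15 (0.217). Each of the modifier and the protease was thus the third on the other's list. Iigp1c and Ifi209 belong to families of close copies, the immunity-related GTPases and the p200 proteins, and their counts may be split with relatives. Among the 3 nearest to Herc6 were Irgm2 (0.0543), another immunity-related GTPase, and Gm5431 (0.105). Ube2l6 lay nearest to Mlkl (0.0892), the executor of necroptosis, B2m (0.0955), the light chain of MHC class I, and Psmb8 (0.107), an immunoproteasome subunit. The 3 nearest to Uba7 were Timeless (0.113), Trafd1 (0.117) and Fbxw17 (0.119). Uba7 and Ube2l6 differed from each other by 0.198, and from Isg15 by 1.99 and 1.95. This measure takes in the size of a gene's rise as well as its pattern. The root mean square of the centred profile itself was 2.92 for Isg15, 0.951 for Uba7 and 0.998 for Ube2l6.

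Other genes that act on ISG15 went both ways. Of 10 listed further ligases, deconjugating proteases and receptor subunits 9 were tested, and 2 were higher and 6 lower on Ifnb1eGFP than on eGFP supernatant (edgeR). Over all genes 30.1% were higher and 25.0% lower in this comparison, and the list's median log2 fold change was -0.38 against 0.03. Trim25, a ligase that can also conjugate ISG15, was higher by 1.34 and Usp21 by 0.46. The LFA-1 subunits that bind extracellular ISG15 were lower, Itgb2 by a log2 fold change of -1.49 (SE 0.0487, adjusted p = 9.06e-10, edgeR) and Itgal by -1.53 (SE 0.12, adjusted p = 7.94e-07, edgeR). Usp2 was at -1.37, and Usp5, Usp14 and Arih1 were between -0.42 and -0.38. On rIFNβ against untreated control the count was again 2 higher and 6 lower, where 30.7% and 24.6% of all genes were, with a median of -0.46.

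Of the 8 genes listed around the receptor arm that USP18 acts on, 5 were higher and 1 lower on Ifnb1eGFP supernatant, and 6 were higher and 2 lower on rIFNβ (edgeR), against the 30.1% and 25.0%, and 30.7% and 24.6%, of all genes. Stat2 and Irf9, which act together in transcription downstream of the receptor, had log2 fold changes of 3.08 and 1.50 on Ifnb1eGFP supernatant, and 3.63 and 1.73 without eGFP supernatant replicate 2. Ifnar2, the chain that USP18 binds, was at 0.57 and Ifnar1 at -0.55. Skp2, which marks USP18 for degradation, was at 0.52.

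Among 22 proteins reported as ISG15 targets, the transcripts of 12 were higher and 3 lower on Ifnb1eGFP supernatant, with 6 past the stricter limits (edgeR). The shares over all genes were 30.1%, 25.0% and 2.77%. Among the 6 were the antiviral genes Ifit3 (5.75), Ifit1 (4.85) and Mx1 (4.78) and the RNA sensors Rigi (3.17) and Ifih1 (2.96), as log2 fold changes. eGFP supernatant replicate 2 was high for these genes too, and without it the values were 7.86 for Ifit3, 6.64 for Ifit1, 6.29 for Mx1, 3.70 for Rigi and 3.30 for Ifih1, with 8 of the list past the limits. Cgas, the DNA sensor, was at 1.41 (adjusted p = 2.23e-08, edgeR) and Pml, the organizer of nuclear bodies, at 1.88. Flna, an actin cross-linker, was the lowest at -0.82. The median was 0.34, and 7 of the 22 were not called. On rIFNβ 12 were higher and 4 lower and 8 were past the limits (2.99% of all genes), with a median of 0.35.

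The parallel systems of ubiquitin and ubiquitin-like modifiers had smaller log2 fold changes. Of 50 listed genes of the ubiquitin, SUMO, NEDD8, UFM1, FAT10 and URM1 systems 49 were tested, and 19 were higher and 10 lower on Ifnb1eGFP supernatant with a median log2 fold change of 0.09 (edgeR), where 30.1% and 25.0% of all genes were. Without eGFP supernatant replicate 2, 15 were higher and 7 lower. None passed the limits of log2 fold change 2 and adjusted p 0.01 in edgeR, where 4 of the 5 ISG15 genes did, and 2 were over 2-fold higher. The higher of these was Urm1, a modifier that also carries sulfur for tRNA, at 1.28 (adjusted p = 1.75e-07, edgeR). On rIFNβ 16 were higher and 13 lower with a median of 0.03.

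By system, and to be read against the same shares of all genes, 4 of 15 ubiquitin genes were higher and 3 lower, 9 of 16 SUMO genes higher and 1 lower, 4 of 10 NEDD8 genes higher and 3 lower, and 2 of 8 genes of the UFM1, FAT10 and URM1 group higher and 3 lower. Ubb, a polyubiquitin gene, was at 0.74. Sumo3 was at 0.65 and the SUMO proteases and ligases Senp1 and Pias1 at 0.63 and 0.39. The cullin partners Rbx1 and Rnf7 moved apart, at 0.40 and -0.48. In the UFM1 system the protease Ufsp2 was at -0.52.

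The closest relatives of the ISG15 E1 and E2 were lower. The ubiquitin-activating enzymes Uba1 and Uba6 were at -0.35 and -0.59, against 1.67 for Uba7, and Ube2l3, the ubiquitin E2 nearest to Ube2l6, was at -0.25. Of the other HERC ligases only Herc3 was called, at 0.43, while Herc1, Herc2 and Herc4 were at -0.03, -0.13 and 0.05. All 8 deubiquitinases listed for interferon and NF-κB signalling were called, 6 higher and 2 lower (all genes: 30.1% and 25.0%). Usp25 was at 1.56 and Usp3 at 0.74, and Tnfaip3, a brake on NF-κB signalling, at -1.59. No gene of these lists was called between eGFP supernatant and untreated control, between the 2 sources of IFNβ or in the interaction (edgeR).

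**Figure D5:**
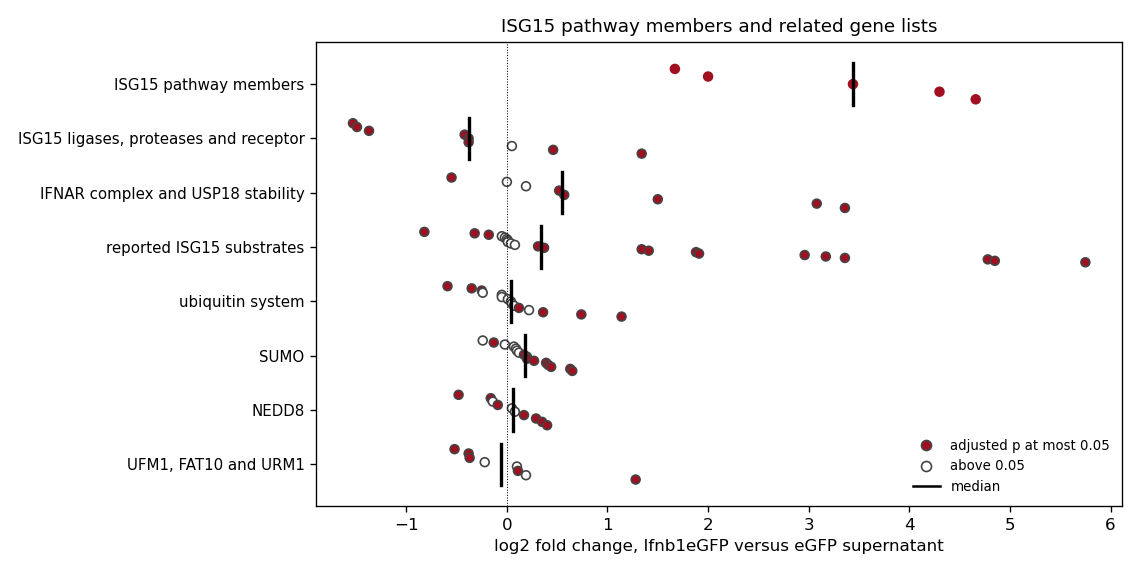
Log2 fold change on Ifnb1eGFP against eGFP supernatant for the 5 ISG15 pathway genes and for 7 lists of related genes, 1 point a gene, filled where the adjusted p is at most 0.05, with a bar at each list's median. The 5 genes lie between 1.67 and 4.66, and no gene of the ubiquitin, SUMO, NEDD8 or UFM1, FAT10 and URM1 lists lies above 1.28.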

How the data were processed

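Stranded total RNA was sequenced; the authors ran RSEM 1.3.3 on the reads and deposited its expected counts per Ensembl gene, not normalized. Of the values above 0, 32.0% were not whole, and RSEM shares reads between overlapping or similar genes by estimate. The genome is given as GRCm39 mm10, the names of 2 builds; the counts carry no coordinates.

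Symbols and exon lengths came from GENCODE M39 (56017 of 56748 genes matched). Expected counts were rounded, filtered with filterByExpr, scaled by TMM and tested with edgeR 4.0.16 (R 4.3.3) in 1 fit of 4 condition means over 12 libraries, after a test on simulated counts; p-values were adjusted by Benjamini-Hochberg over 15033 genes. DESeq2 1.42.0, RLE factors, library totals, no filter, a replicate block, only the compared conditions, leaving out each library and adding Gm45193 to Herc6 were alternatives. Log ratios used a prior count of 2. Similar transcripts were sought with blastn 2.17.0, at 90% identity over 300 bp.

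Members, gene lists and named genes (the 5 members, their relatives and copies, the 3 smallest adjusted p and every gene past log2 fold change 2 and adjusted p 0.01 in each list, and the 3 nearest profiles) were chosen with earlier results of these data known; Usp21, Usp5, Usp14, Arih1, Flna, Skp2 and others were added as examples after their values were seen, and a few that the rule names are not reported here. Same-numbered libraries deviated together between Ifnb1eGFP supernatant and rIFNβ (r of 0.167, 0.246 and 0.207) and between eGFP supernatant and rIFNβ (0.144, 0.16 and 0.212; not compared here), the pairs of conditions with every r over 0.1; the labels do not say what the number marks.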

Additional observations from a re-analysis of the deposited data

How the results depend on the processing

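All 5 genes stayed called higher in both comparisons of IFNβ with no IFNβ, and none was called in the other 3, under every alternative run. Past the stricter limits there were 3 to 4 in the first comparison, since Ube2l6 lies at a log2 fold change of 2, and 4 in the second. Leaving out a library turned the sign of 3 log2 fold changes, none of them called: Herc6 between the sources of IFNβ (-0.14 to 0.01, the latter without Ifnb1eGFP supernatant replicate 2), Isg15 on eGFP supernatant (-0.10 to 1.70, the former without eGFP supernatant replicate 2) and Ube2l6 in the interaction (-0.03 to 0.16, the former without eGFP supernatant replicate 3). Counts over all genes moved more. Between the sources of IFNβ 24 genes were called, 116 with DESeq2, 41 without the filter, 48 with the replicate block, 2 with only the compared conditions and 4 to 1051 with a library left out (1051 without Ifnb1eGFP supernatant replicate 2). For eGFP supernatant against untreated control 45 were called, against 205, 75, 122 and 22 in the same settings and 16 to 76 with a library left out (16 without eGFP supernatant replicate 2). The interaction gave 0, 16 with DESeq2 and 1 without the filter. The cause was not tested. In the other comparisons made here not every same-numbered pair had a correlation over 0.1. Between eGFP and Ifnb1eGFP supernatant, however, r was 0.0892, 0.252 and 0.244 in the order of the numbers. Most of these libraries thus deviated together too, and the main fit of that comparison takes no account of it. Over all 18 same-numbered pairs the range was 0.0582 to 0.252. The replicate block changed no call of the 5 genes; for the ratios to Isg15 its p was 0.0312. Per length Isg15 was the second of the 5 in untreated cells and took place 3 with the longest transcript as length; leaving out a library gave place 2 to 3. Between the sources of IFNβ the SE of Isg15 was 0.494, against 0.142 without eGFP supernatant replicate 2.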
